A study of Mus musculus with 3 samples.

Results

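Adventitial fibroblasts were chosen by the RNA counts of 10 genes in single-cell profiles of mouse lung, as barcodes with RNA of the collagen gene Col1a2 and more RNA of Pi16, Dpt and Serpinf1 than of the alveolar fibroblast genes Npnt and Tcf21. UMIs are molecular tags, with 1 tag standing for 1 captured RNA molecule. Barcodes were kept from 500 UMIs and 200 genes upward, with no more than 20% of UMIs from mitochondrial genes. A member had at least 2 UMIs of Col1a2, none of Ptprc, Epcam or Cdh5 (markers of leukocytes, epithelium and endothelium), at most 1 of Msln (mesothelium), and at least 1 of Pi16, Dpt and Serpinf1 summed, which also had to exceed Npnt and Tcf21 summed. The rule found 447 cells of 30973 kept barcodes: 103 in the PD00 library, 108 in the Model library and 236 in the Control library. Each treatment label had 1 library from lungs of mice aged 3 months. Ovalbumin is the inducing agent in the title of the study, where PD00 is described as a peptidomimetic. The labels call all of the lungs healthy, and give neither the number of animals per library nor whether PD00 mice also received ovalbumin. With 1 library per label no difference has a replicate check and no test was run, so all 95% intervals cover counting error only.

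Adventitial fibroblasts lie in the connective tissue cuffs around the larger airways and vessels of the lung. They make fibrillar collagen and proteoglycans, and in mice they are known as a source of the alarmin IL-33 and of signals that support lymphocytes in these cuffs. Alveolar fibroblasts, the other main collagen-producing fibroblast of the lung, lie in the walls of the air sacs and are marked by Npnt, Tcf21, Inmt and Limch1.

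The adventitial cells held 1139515 UMIs in PD00, 1283556 in Model and 1974359 in Control, with a median depth per cell of 9932, 11100 and 7892 UMIs over 3037, 3128 and 2618 genes. Their median mitochondrial share lay between 2.87% and 3.32% in the 3 libraries. No barcode sequence was shared between the members of different libraries. Levels are given as CPM, the UMIs of a gene per 1000000 UMIs summed over the adventitial fibroblasts of a library.

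The genes that chose the cells had different levels in the 3 libraries, and are given as a description. Pi16, a peptidase inhibitor and marker of adventitial cells in many organs, stood at 400.2 CPM in PD00, 1311 in Model and 899 in Control. Dpt, the collagen-binding protein dermatopontin, was level at 1661, 1684 and 1660 CPM. Serpinf1, which encodes the anti-angiogenic factor PEDF, had 246 CPM in PD00, 617 in Model and 787 in Control, and Col1a2 had 4278, 6646 and 4619 CPM. Npnt, against which the cells were chosen, was highest in PD00 at 257 CPM, with 48.3 in Model and 108 in Control.

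Most adventitial markers that took no part in the choice were higher in these cells than in alveolar fibroblasts, alongside alveolar transcripts that differed between libraries. Of 23 other adventitial markers, 20 were higher in adventitial than in alveolar fibroblasts of PD00, 22 in Model and 22 in Control. The same count was 21, 21 and 20 of 21 for immediate-early genes, and 12, 2 and 3 of 54 for nuclear genes of oxidative phosphorylation. No share over all genes stands beside these counts, so they are descriptions. Alveolar fibroblasts here met the same limits but had more Npnt and Tcf21 than Pi16, Dpt and Serpinf1 UMIs. There were 40 in PD00, 45 in Model and 96 in Control. Their sums were mixed: 15 markers of mural cells (smooth muscle and pericytes) had 3802 CPM in PD00, 17070 in Model and 9451 in Control. The 14 other alveolar markers had 9965, 3906 and 9827 CPM. Summed over the 23 markers, the adventitial levels were 17540 CPM in PD00, 22780 in Model and 32090 in Control. The alveolar levels were 11670, 5299 and 11280 CPM, so the gap was narrowest in PD00. RNA of all 3 of Pi16, Dpt and Serpinf1 was found in 44 of 103 members in PD00 (42.7%, exact Clopper-Pearson 95% interval 33.0 to 52.9%), in 78 of 108 in Model (72.2%, 62.8 to 80.4%) and in 139 of 236 in Control (58.9%, 52.3 to 65.2%).

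Inmt, a methyltransferase of alveolar fibroblasts, was present in most members: 75.7% in PD00, 67.6% in Model and 78.0% in Control had at least 1 UMI. Members with more Inmt than Col14a1 (a fibril-associated collagen of adventitial cells) made up 60.2% of the set in PD00 (50.1 to 69.7%), 34.3% in Model (25.4 to 44.0%) and 50.9% in Control (44.3 to 57.4%). Inmt averaged 2099 CPM in PD00, 946 in Model and 2599 in Control, and in alveolar fibroblasts 4743, 1401 and 4993 CPM. Members with more Inmt than Col14a1 were thus a larger share of the PD00 set than of the Model set. Between these libraries Inmt was at least 2-fold higher in PD00 and Col14a1 at least 2-fold lower. More cells of this kind therefore cannot be told apart from a shift in the levels of both genes. For several PD00 results below, the values for members with all 3 markers, or for members without an excess of Inmt, are given as well.

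**Figure D1:**
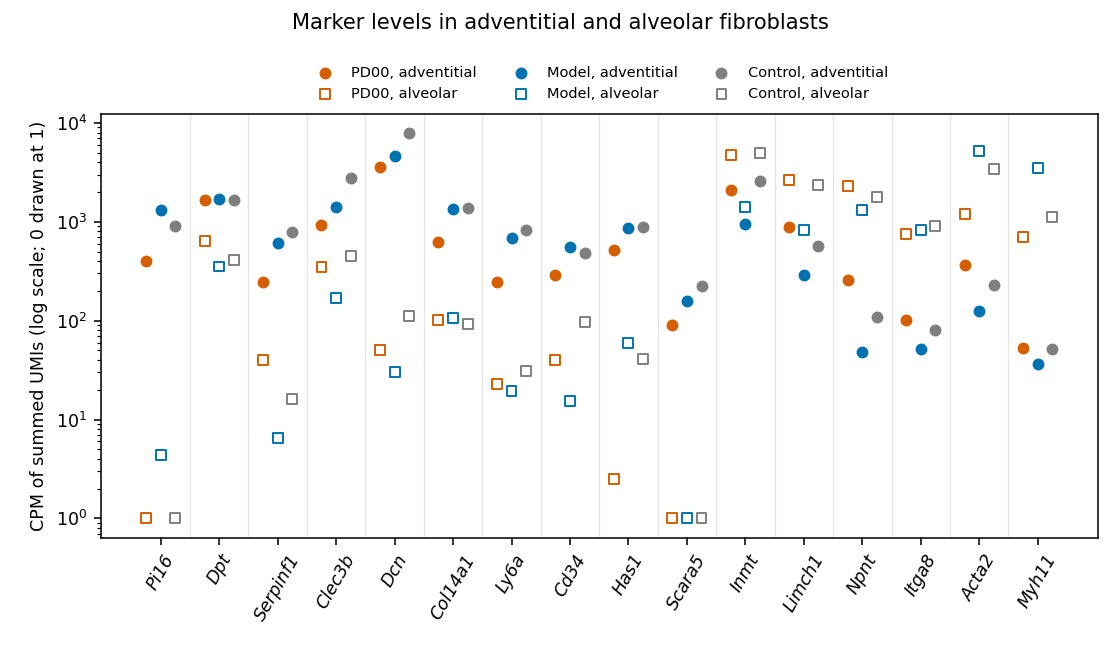
Levels of 16 genes in CPM of summed UMIs (log axis, a count of 0 drawn at 1), with a point for each library: filled circles are adventitial fibroblasts and open squares alveolar fibroblasts, in the order PD00, Model, Control within each gene. Dcn stands at 3587, 4598 and 7824 CPM in adventitial against 50.4, 30.5 and 112 CPM in alveolar fibroblasts, while Npnt has the reverse order in every library.

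**Figure D2:**
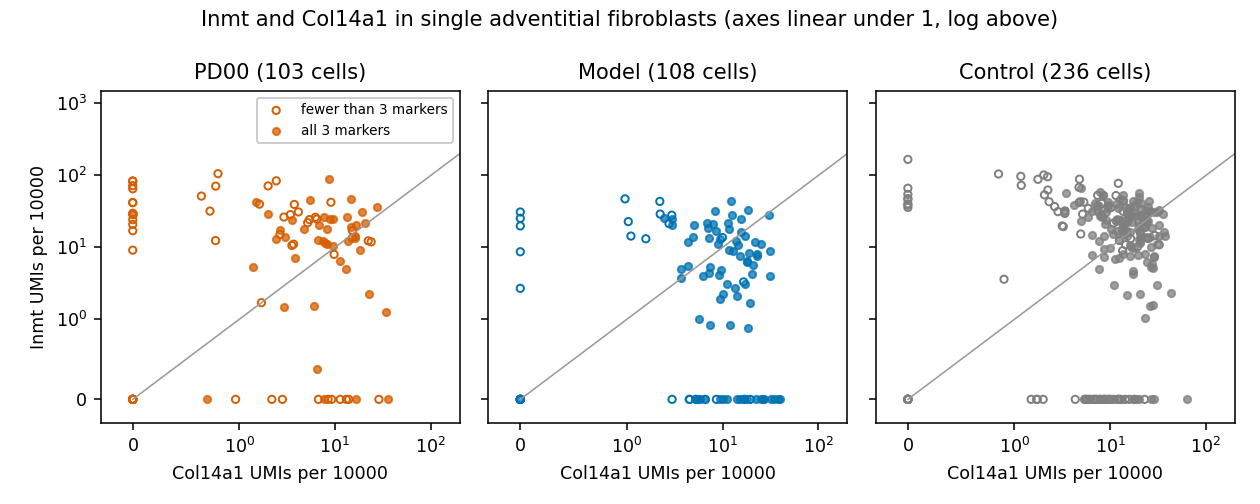
Inmt against Col14a1 in each adventitial fibroblast, in UMIs per 10000 UMIs of the cell (axes linear under 1 and logarithmic above), 1 panel per library; filled points had all 3 of Pi16, Dpt and Serpinf1, open points fewer, and the line marks equal values. Above the line lie 62 of 103 cells in PD00, 37 of 108 in Model and 120 of 236 in Control.

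The cells next to the rule's limits were few. In PD00, Model and Control, 3, 5 and 11 members had a single marker UMI, and 6, 7 and 16 exceeded Npnt and Tcf21 by 1 UMI. Outside the set, 4, 1 and 6 fibroblasts had equal counts of the marker genes and of Npnt with Tcf21, and 4, 3 and 4 fell short by 1 UMI. Another 7, 16 and 12 fibroblasts had UMIs of neither.

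Adventitial fibroblasts were a smaller share of the Model and PD00 libraries than of the Control library. They made up 1.07% of kept barcodes in PD00 (103 of 9647, 0.872 to 1.29%), 0.936% in Model (108 of 11537, 0.769 to 1.13%) and 2.41% in Control (236 of 9789, 2.12 to 2.73%). The share in Model was 0.388 times that in Control (95% interval 0.306 to 0.490), the share in PD00 was 0.443 times that in Control (0.348 to 0.561), and PD00 against Model gave 1.14 (0.862 to 1.51). The last ratio turned to 0.675 when only members with all 3 markers were counted and to 0.691 without members richer in Inmt than in Col14a1, and was 0.979 without members that had 5 or more UMIs of the smooth muscle genes Acta2 and Myh11. Thinned to 2000 UMIs per barcode, the ratio of Model to Control was 0.513. Among fibroblasts the adventitial share was nearly level, at 66.9% of 154 cells in PD00, 63.5% of 170 in Model and 67.4% of 350 in Control, and alveolar fibroblasts had a Model to Control ratio of 0.398 (0.273 to 0.572), close to the adventitial ratio. Barcodes without Ptprc UMIs numbered 1908, 2463 and 1577, so the kept barcodes were mostly leukocytes; the yield of tissue dissociation cannot be told apart from the number of cells in the lung.

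In Model against Control, the adventitial fibroblasts had far more RNA of matrix genes of type VI collagen and of the matricellular gene Postn, of the long pentraxin Ptx3, the sphingomyelinase Smpd3 and the retinoic acid enzymes Aldh1a3 and Rdh10, and less of the protease inhibitor Timp3, the protease Mmp3 and the carriers Rbp4 and Apoe. A gene was measured where the 2 sums held at least 50 UMIs together. Of 6776 measured genes, 207 (3.05%) were at least 2-fold higher in Model and 271 (4.0%) at least 2-fold lower, and the median log2 ratio was −0.12. The genes named for a comparison were those whose interval bound lay farthest from 1, after leaving out genes under 3 times their level in barcodes without Col1a2, genes with over 25% of their UMIs in 1 cell, and the kinds of gene listed with the processing.

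Col6a5, a chain of type VI collagen on mouse chromosome 9 (GRCm38, 105856078 to 105960643, minus strand), showed the widest gap. It had 537 UMIs in PD00 (471 CPM), 950 UMIs in Model (740.1 CPM) and 1 UMI in Control (0.51 CPM). The ratio of Model to Control was 1461, with a counting interval of 262 to 57780. RNA of Col6a5 was found in 47 of 103, 51 of 108 and 1 of 236 cells, so Control differed from both other libraries. The neighbouring chain Col6a6 had 84.3 CPM in PD00, 153 in Model and 20.3 in Control. The common chains Col6a1 and Col6a2, which assemble with these or with Col6a3 into microfibrils, had 1517 and 1349 CPM in Model against 639 and 536 in Control, while Col6a3 was 1.69-fold higher (1.502 to 1.90).

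Postn encodes periostin, a matricellular protein known as a target of IL-13 and of TGF-beta in airway tissue. On chromosome 3 (54361109 to 54391037, plus strand), it had 835 CPM in PD00, 1816 in Model and 56.7 in Control. The ratio of Model to Control was 32.0 (26.5 to 39.1). Cells with Postn RNA made up 48.5% of members in PD00, 52.8% in Model and 16.1% in Control, and after thinning each barcode to 2000 UMIs 29.3%, 38.2% and 9.28%; in leukocytes the shares were 1.19%, 1.86% and 0.452%. In Model 5 cells held 50% of the Postn UMIs and in PD00 3 cells did, so the level rests on a minority of cells. Postn was also on the list of mural cell markers. The other 14 of these summed to 909 CPM in PD00, 315 in Model and 664 in Control. Among them Myh11 had 52.7 CPM in PD00, 36.6 in Model and 51.7 in Control, against 708, 3474 and 1127 CPM in alveolar fibroblasts. Acta2 and Tagln, given below, were higher than Myh11 in the adventitial cells of each library.

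The start-site windows of Col6a5 and Postn are shown because these genes separated Model from Control most clearly among the collagen and matricellular genes. They are RefSeq windows of GRCm38.p6 from 250 bases before to 50 after the start, on the gene's strand. In Col6a5 (chr9:105960594-105960893, minus strand) capitals mark TTCNNNGAA, the palindrome that STAT factors bind, which begins at position −209 from the start and occurs in 8.3% of 32841 mouse windows of this kind. In Postn (chr3:54360857-54361156, plus strand) capitals mark the TATA box letters TATAAA, beginning at position −26 and found on either strand in 13.6% of windows. Another Postn window (chr3:54359017-54359316, plus strand) lacks these letters, and the window shown was picked because it holds them.
Col6a5: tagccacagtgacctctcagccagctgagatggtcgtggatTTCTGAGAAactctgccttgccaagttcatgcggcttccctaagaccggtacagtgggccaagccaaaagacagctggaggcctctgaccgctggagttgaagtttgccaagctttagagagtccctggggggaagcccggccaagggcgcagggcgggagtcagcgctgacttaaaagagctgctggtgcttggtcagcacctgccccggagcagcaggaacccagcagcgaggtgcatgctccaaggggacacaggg
Postn: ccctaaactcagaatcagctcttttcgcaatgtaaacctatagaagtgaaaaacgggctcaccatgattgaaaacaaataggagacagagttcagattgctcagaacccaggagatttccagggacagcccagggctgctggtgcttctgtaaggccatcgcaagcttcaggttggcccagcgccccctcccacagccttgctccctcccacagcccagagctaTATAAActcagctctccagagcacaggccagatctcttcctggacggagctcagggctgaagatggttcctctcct
Of 49 genes named by the rule in any comparison, 33 had a window, 45 windows in all. TTCNNNGAA was in 3 of those windows (Col6a5, Pcolce2 and Serpina3g), and TTCNNNNGAA, the spacing that STAT6 prefers, was in 3 (Rbp4, Shroom3 and Tfpi2), against 6.95% of all windows. TATAAA was in 10. The motifs were searched on both strands and are letters only, with no measure of binding.

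The other genes named as higher included secreted proteins and enzymes. Ptx3, a soluble pattern-recognition molecule that also organises hyaluronan matrix, stood at 32.5 CPM in PD00, 565 in Model and 49.1 in Control, a ratio of Model to Control of 11.5 (interval 9.29 to 14.4). Smpd3, the neutral sphingomyelinase that makes ceramide, had 138, 569 and 1.52 CPM, and the Control value rested on 3 UMIs. Aldh1a3 and Rdh10, which act in sequence to make retinoic acid, had 144 and 43.9 CPM in PD00, 361 and 89.6 in Model, and 23.8 and 15.2 in Control. Aif1l, an actin-binding protein, had 7.90 CPM in PD00, 56.1 in Model and 4.56 in Control. Tfpi2, an inhibitor of serine proteases, had 36.0, 101 and 14.2 CPM, and C1qtnf6, a secreted C1q-related protein, 69.3, 101 and 16.7 CPM. All 10 genes named as higher kept that direction when the members were limited to cells with all 3 markers, and also without cells richer in Inmt than in Col14a1. The genes were picked from these same cells, so this is a description and no separate check.

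The highest genes shared cells. In Model, 57 members had Postn RNA and held 62.5% of all UMIs of the set. They held 93.2% of the Col6a5, 99.2% of the Smpd3, 96.6% of the Ptx3, 98.7% of the Aldh1a3 and 88.6% of the Ccl11 UMIs. Members with more Col14a1 than Inmt held 63.2% of all UMIs in Model and between 73.9% and 99.5% of the UMIs of these genes and of Postn. In Control the 38 Postn-positive members held 19.6% of all UMIs, 23.4% of the Aldh1a3 and 27.6% of the Ccl11 UMIs. They held 87.6% of the 97 Ptx3 UMIs, of which 45 lay in 1 cell with a single Postn UMI. Each of these shares is read within 1 library, and cells of a library are not replicates.

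**Figure D3:**
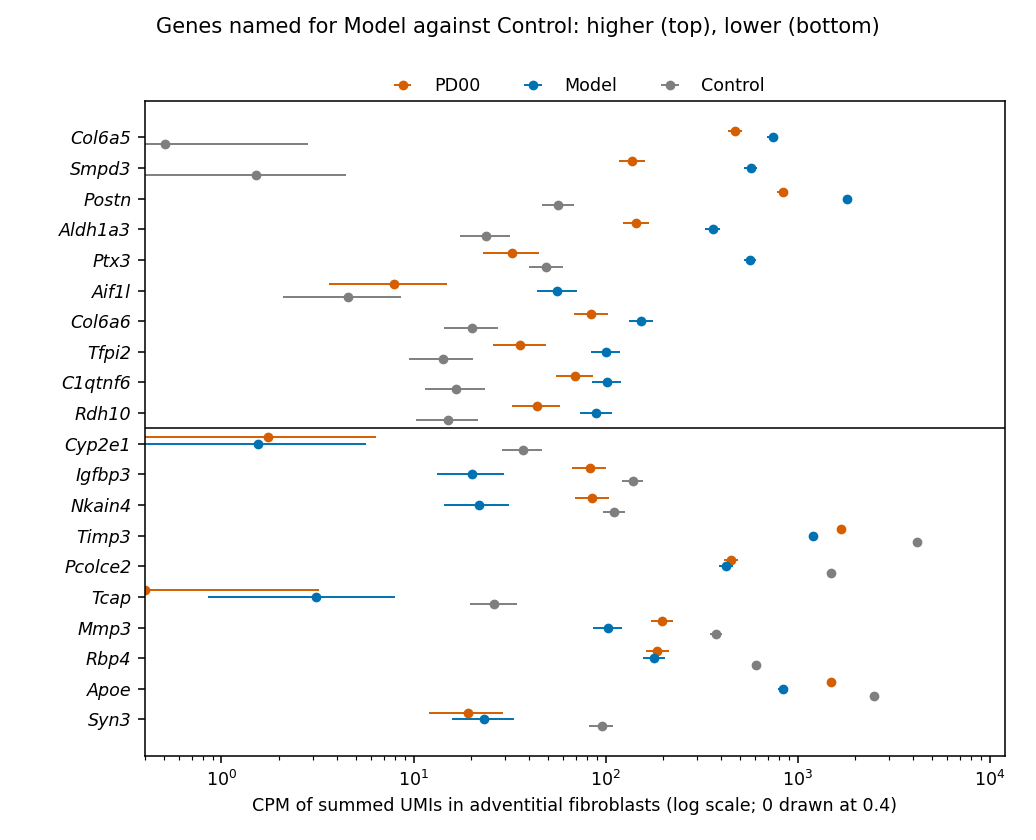
CPM of the 20 genes named for Model against Control (log axis, 0 drawn at 0.4), higher genes above the line and lower genes below it; each gene has the points PD00, Model and Control from top to bottom, with exact Poisson 95% intervals of counting error. Col6a5 stands at 740.1 CPM in Model and 0.51 in Control; for Ptx3 and Aif1l the PD00 points lie near Control while for Timp3, Rbp4 and Pcolce2 they lie nearer to Model.

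The genes named as lower in Model had varied roles. Timp3, the matrix-bound inhibitor of metalloproteinases, had 1687 CPM in PD00, 1202 in Model and 4194 in Control, a ratio of Model to Control of 0.287 (0.271 to 0.303). Its values in cells with all 3 markers were 1933, 1203 and 4530 CPM. Syn3, a synapsin gene that overlaps Timp3 on the opposite strand, had 19.3, 23.4 and 95.2 CPM, and the assignment of reads between the pair is uncertain. Pcolce2, an enhancer of procollagen processing, had 450.2, 423 and 1494 CPM. Mmp3 (stromelysin) had 197, 103 and 377 CPM, Rbp4 (the retinol carrier) 186, 178 and 609 CPM, and Apoe (a lipid carrier) 1498, 838 and 2505 CPM, although Apoe was only 1.71, 1.01 and 4.21 times as high as in barcodes without Col1a2. Igfbp3, which binds insulin-like growth factors, had 82.5 CPM in PD00, 20.3 in Model and 138 in Control, and Nkain4, an interactor of the sodium pump, 85.1, 21.8 and 111 CPM. Cyp2e1 (1.75, 1.56 and 37.0 CPM) and Tcap (0, 3.12 and 26.3 CPM) belonged to the members with fewer markers: in cells with all 3 markers their log2 ratios were 0.25 and −0.75, against −4.57 and −3.08 in the whole set. Both Model levels lie near 2.34 CPM, the level that 3 UMIs stand for there, so these ratios rest on few UMIs.

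Of 6 measured fibril-forming collagens, 3 were at least 2-fold higher in Model and none lower, with a median log2 ratio of 0.99 against −0.12 for all genes. Col3a1 had 4067 CPM in PD00, 7873 in Model and 3932 in Control, 2.002-fold higher in Model than in Control (1.94 to 2.06). Col1a1 had 2376, 4442 and 2256 CPM, 1.97-fold higher (1.89 to 2.05). Col5a2 had 620.4, 734 and 294 CPM, and Col5a3 42.1, 112 and 31.9 CPM. Both type V chains help to start the fibrils that types I and III build. Among enzymes that process collagen, 3 of 23 were higher (the cross-linking enzymes Lox and Plod2, and Bmp1, which cuts procollagen) and Pcolce2 was lower. Lox had 282, 219 and 82.1 CPM.

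Other matrix groups had fewer members past 2-fold. Of 16 elastic fibre genes, Eln and Ltbp2 were higher; Eln had 1394 CPM in PD00, 1848 in Model and 664 in Control. Of 26 proteoglycans and glycoproteins, 5 were higher (Postn, Cthrc1, Fn1, Has2 and Matn2) and Fmod was lower. Fn1 (fibronectin) had 1818, 3096 and 611 CPM, but it stood at 1.19, 2.51 and 4.28 times the level in barcodes without Col1a2. Fmod (fibromodulin), which shapes collagen fibrils, had 109, 35.8 and 125 CPM. Cthrc1 and Has2 each had over 25% of their Model UMIs in 1 cell. Of 29 proteases and inhibitors, 4 were higher and 3 lower; Serpina3n had 868, 567 and 231 CPM.

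Several genes tied to type 2 inflammation were higher in Model, some of them at levels below those of barcodes without Col1a2. Of 13 measured genes in the list of IL-4, IL-13 and alarmin signalling, 7 were at least 2-fold higher, none lower, with a median log2 ratio of 1.05. Ccl11 (eotaxin-1, which draws eosinophils) had 636 CPM in PD00, 1075 in Model and 318 in Control, and its ratio of Model to Control was 3.38 (interval 3.07 to 3.72). Il33 had 159, 210.4 and 101 CPM, 2.08-fold higher (1.72 to 2.51). Both were far above barcodes without Col1a2, 383 and 240 times in Model. The receptor chains Il4ra and Il13ra1 had 72.5 and 41.3 CPM in Model against 33.4 and 16.7 in Control, at 0.783 and 1.53 times the level of barcodes without Col1a2. Retnla, Chil3 and Ccl8, the other higher members, were below that level in Model, at 0.0732, 0.102 and 0.365 times. Chil3 RNA was found in 100% of Model members and in 99.9% of Model leukocytes, and Chil3, Retnla, Mmp12, Rnase2a and Emb were the 5 highest genes that the 3-fold limit left out.

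Other inflammatory genes gave a mixed picture. Of 17 measured cytokines and mediators, 3 were higher (Saa3, Tnfaip6 and Ptgs2) and Icam1 was lower. Tnfaip6, a hyaluronan-binding protein that acts with Ptx3 in the same matrix, had 311 CPM in PD00, 1116 in Model and 338 in Control, a ratio of Model to Control of 3.30 (interval 3.01 to 3.62). Ptgs2 (cyclooxygenase-2) had 387, 861 and 294 CPM, with a ratio of Model to Control of 2.93 (interval 2.64 to 3.24). Of 15 complement genes only C3, the central component, was higher, with 7093, 6348 and 1846 CPM, and C7 and C2 were lower. Of 10 chemokines, Ccl11 and Ccl8 were higher and Cxcl2 lower; Cxcl12, the ligand of Cxcr4, had 785, 485 and 471 CPM. Of 14 MHC genes 4 were higher, all of class II or its chaperone, which stood under 0.08 times the level of barcodes without Col1a2.

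Oxidative phosphorylation and immediate-early genes had at most 1 member past 2-fold. None of 21 immediate-early genes reached 2-fold (median −0.25), and 1 of 54 nuclear genes of oxidative phosphorylation was lower (Atp5g1), with a group median of −0.51 against −0.12 for all genes. Among 24 transcription factors of mesenchyme, Osr2, Twist1 and Ebf2 were higher. Antioxidant genes split: Gpx3 had 1038, 764 and 301 CPM, while the glutathione transferases Gsta3, Gstt1 and Gstm1 were lower. Among TGF-beta and BMP genes, 2 of 29 were higher (Inhba and Ccn4) and 5 lower.

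In PD00 against Model, the adventitial fibroblasts had less RNA of Ptx3, of the interferon-induced gene Ifit1, of the chemokine scavenger Ackr3 and of several genes that mark adventitial cells, and more of genes that alveolar fibroblasts also express, such as Limch1. Of 5802 measured genes, 171 (2.95%) were at least 2-fold higher in PD00 and 163 (2.81%) lower, with a median log2 ratio of 0.08. Members with more Inmt than Col14a1 made up 60.2% of the set in PD00 and 34.3% in Model, and both genes also differed in level. The part of this difference in each ratio was not tested beyond the restricted values given. Members with all 3 markers numbered 44 in PD00, 78 in Model and 139 in Control, and those left without cells richer in Inmt 41, 71 and 116. For both PD00 comparisons, list counts and medians in these smaller sets lack the share and median over all genes beside them. They are descriptions only.

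Ifit1, which binds foreign RNA after induction by interferon, was the lowest by rank. It had 3.51 CPM in PD00 (4 UMIs), 118 in Model (151 UMIs) and 53.2 in Control (105 UMIs). The ratio of PD00 to Model was 0.0298 (0.00803 to 0.0780), and its log2 value was −5.07 in the whole set, −5.37 in cells with all 3 markers and −3.92 without cells richer in Inmt. In PD00 the level lay below that of barcodes without Col1a2 (0.389 times), and in Model it was 9.16 times that level. Of 14 measured interferon-response genes, 5 were lower in PD00 (Ifit1, Isg15, Iigp1, Oasl2 and Gbp2), none higher, and the median was −0.53; without cells richer in Inmt, 6 were lower and 1 higher, with a median of −0.95. Iigp1, an interferon-induced GTPase, had 62.3, 219 and 115 CPM. Isg15, a ubiquitin-like modifier, had 13.2, 56.1 and 54.2 CPM, below the level of barcodes without Col1a2 in all libraries. The 27 genes of the list summed to 834 CPM in PD00 and 1345 in Model in adventitial cells. In barcodes without Col1a2 the sums were 587 and 896 CPM, and in alveolar fibroblasts 952 and 1046 CPM. A lower sum in PD00 than in Model was thus not particular to the adventitial cells.

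The start-site window of Ifit1 (GRCm38.p6, chr19:34640639-34640938, plus strand) is shown as the gene with the lowest PD00 level relative to Model. Capitals mark TTTCNNTTTC, the core of the interferon-stimulated response element, which begins at positions −104 and −85.
Ifit1: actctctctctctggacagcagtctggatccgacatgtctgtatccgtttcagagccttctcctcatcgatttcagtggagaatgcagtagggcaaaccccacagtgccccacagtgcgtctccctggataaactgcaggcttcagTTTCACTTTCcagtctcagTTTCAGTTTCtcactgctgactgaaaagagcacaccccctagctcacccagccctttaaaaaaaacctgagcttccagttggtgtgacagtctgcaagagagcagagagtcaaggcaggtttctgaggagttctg
The motif, searched as TTTCNNTTTC and its reverse complement GAAANNGAAA, occurs in 3.44% of 32841 windows and in 1 of the 45 windows of named genes.

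Ptx3 had 32.5 CPM in PD00, 565 in Model and 49.1 in Control, a ratio of PD00 to Model of 0.0575 (0.0402 to 0.0800). It was found in 6 of 103, 30 of 108 and 16 of 236 members. Among members with more Col14a1 than Inmt, Ptx3 stood at 71.7 CPM in PD00, 858 in Model and 99.3 in Control, so the gap was there as well. Tnfaip6 (311 and 1116 CPM, ratio 0.279) and Ptgs2 (387 and 861 CPM, ratio 0.450) were also lower in PD00 than in Model.

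Postn and Col6a5 differed from Ptx3 in these cells. Over the whole set they were lower in PD00, with 835 against 1816 CPM for Postn and 471 against 740.1 CPM for Col6a5. Among the 29 PD00 and 62 Model members with more Col14a1 than Inmt, Postn stood at 2599 CPM in PD00 and 2573 in Model, with 106 in the 96 Control members of this kind. Col6a5 stood there at 1280, 1070 and 1.40 CPM. In those cells the PD00 level of Postn was close to that of Model and the PD00 level of Col6a5 was above it, but both PD00 levels rest on a few of the 29 cells. Of 952 Postn UMIs in PD00, 76.2% lay in these members, and the highest of them held 238 and 222. Of 537 Col6a5 UMIs in PD00, 66.5% lay there, and the highest members held 110 and 67. The whole-set values differed alongside the share of UMIs from such cells, 24.5% in PD00, 63.2% in Model and 36.2% in Control. Col14a1, on which this split rests, was itself at least 2-fold lower in PD00 than in Model. Counting intervals do not cover the uneven spread over cells: 3 PD00 cells held 50% of the Postn UMIs, and Smpd3 had 117 of its 157 PD00 UMIs in 1 cell.

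Several lower genes mark or regulate adventitial cells. Of 21 measured adventitial markers other than the rule's, 8 were at least 2-fold lower in PD00 and none higher, with a median of −0.81; among cells with all 3 markers 5 of 21 were lower, with a median of −0.44, and without cells richer in Inmt 5 were lower, with a median of −0.72. Ly6c1 and Ly6a, surface antigens of this population, had 54.4 and 248 CPM in PD00, 302 and 678 in Model, and 319 and 825 in Control. Ebf2 and Ebf1, transcription factors of mesenchymal progenitors, had 1.75 and 62.3 CPM in PD00, 49.9 and 173 in Model, and 20.3 and 135 in Control. Sfrp4, a secreted inhibitor of WNT signalling, had 28.1, 153 and 68.4 CPM, and Lum (lumican), a collagen-binding proteoglycan, 115, 516 and 425 CPM. Ackr3, which removes CXCL12 from the cell surface, had 19.3, 228 and 77.0 CPM. Pcsk6, a proprotein convertase, had 5.27, 76.4 and 30.9 CPM, and Arhgef28 7.02, 56.1 and 9.62 CPM. All 10 genes named as lower had log2 ratios under −1.3 in both restrictions of the members, which are parts of the cells that ranked them and give no separate check.

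**Figure D4:**
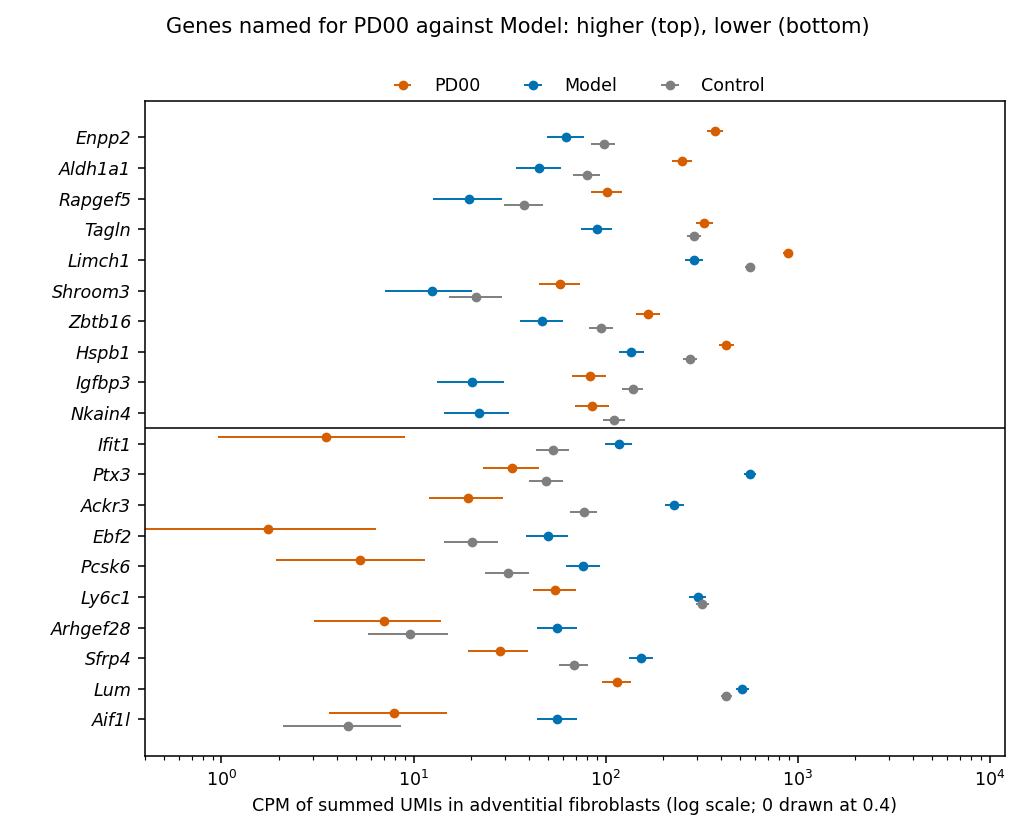
CPM of the 20 genes named for PD00 against Model (log axis), higher genes above the line and lower genes below it; each gene has the points PD00, Model and Control from top to bottom, with exact Poisson 95% intervals of counting error. Ifit1 lies at 3.51 CPM in PD00, 118 in Model and 53.2 in Control, and Control lies between the other libraries for Limch1 and for Hspb1.

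Genes named as higher in PD00 included Limch1 and Enpp2, both from the list of alveolar markers, and the smooth muscle gene Tagln. In PD00, however, Enpp2 was higher in adventitial than in alveolar fibroblasts, so there it did not mark the alveolar cells. Members with 5 or more UMIs of Acta2 and Myh11 summed made up 22 of 103 in PD00 (21.4%, 13.9 to 30.5%), 9 of 108 in Model (8.33%, 3.88 to 15.2%) and 18 of 236 in Control (7.63%, 4.58 to 11.8%). Without them the PD00 to Model log2 ratio of Tagln was 0.88, that of Limch1 2.04 and that of Enpp2 3.74, and the other 7 named genes had values from 1.84 to 2.88. Limch1 had 894 CPM in PD00, 289 in Model and 566 in Control, against 2636, 824 and 2353 CPM in alveolar fibroblasts. Enpp2, which encodes autotaxin, the enzyme that makes lysophosphatidic acid, had 370.3, 62.3 and 97.8 CPM, a ratio of PD00 to Model of 5.94 (4.67 to 7.64). Its log2 ratio was 2.57 in the whole set, 2.68 in cells with all 3 markers and 3.56 without cells richer in Inmt, while that of Limch1 was 1.63, 1.55 and 1.14. Aldh1a1 had 250.1, 45.2 and 80.03 CPM, with a log2 ratio of 2.47 in the whole set and 1.27 in cells with all 3 markers. Tagln (transgelin, an actin-binding protein of smooth muscle) had 327, 90.4 and 289 CPM, with a log2 ratio of 1.86 in the whole set and 0.69 in cells with all 3 markers. Hspb1, a small heat shock protein, had 426, 136 and 275 CPM and a log2 ratio of 1.64 that was 0.74 in cells with all 3 markers. Zbtb16, a transcription factor induced by glucocorticoids, had 167, 46.8 and 94.7 CPM, with a log2 ratio of 1.83 in the whole set and 2.29 without cells richer in Inmt. Rapgef5 and Shroom3 had 102 and 57.9 CPM in PD00, 19.5 and 12.5 in Model, and 37.5 and 21.3 in Control. Igfbp3 and Nkain4, lower in Model than in Control, had PD00 to Model ratios of 4.07 (interval 2.61 to 6.55) and 3.90 (interval 2.54 to 6.17). This comparison and Model against Control share the Model library.

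Of 10 measured genes on the list of alveolar markers, which includes Enpp2, 4 were higher in PD00 (Enpp2, Limch1, Inmt and Col13a1) and Lpl was lower, with a median of 0.74. In cells with all 3 markers the counts were 3 higher and 2 lower (median 0.72). Without cells richer in Inmt they were also 3 and 2, and the median turned to −0.32. Of 6 measured mural markers, 4 were higher (Actg2, Des, Tagln and Acta2) and Postn was lower, with a median of 1.70. In cells with all 3 markers 2 were higher and none lower, with a median of 0.77, and without cells richer in Inmt 5 were higher and none lower, with a median of 2.08. Of these genes, Actg2 and Des each had over 25% of their PD00 UMIs in 1 cell of the whole set. Acta2 (smooth muscle actin) had 367, 125 and 227 CPM, against 1191, 5253 and 3421 CPM in alveolar fibroblasts. The 15 mural markers summed to 1745 CPM in PD00, 2131 in Model and 720.2 in Control, and the 14 without Postn to 909, 315 and 664 CPM, so that PD00 was highest once Postn was left out; 3, 2 and 2 of the 15 genes were at 0. Among 24 transcription factors, Tbx4, which patterns lung mesenchyme, was higher (74.6, 31.9 and 39.0 CPM) and Ebf2, Osr2, Twist1, Ebf1 and Twist2 were lower. Over 25% of the Osr2 UMIs in Model lay in 1 cell. Of 25 proteoglycans and glycoproteins, 2 were higher and 6 lower. Fibril-forming collagens had a median of −0.90, with Col3a1 at 4067 CPM in PD00 and 7873 in Model and 1 of 6 members past 2-fold. Collagen-processing enzymes had none of 22 past 2-fold. None of 54 oxidative phosphorylation genes and none of 21 immediate-early genes reached 2-fold, with medians of 0.22 and −0.10.

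Some of the widest PD00 ratios came from 1 cell or a few cells. Of 835 Saa3 UMIs in PD00, 701 lay in 1 member, which had 24 Dpt and 44 Inmt UMIs. Of 475 Cxcl13 UMIs in PD00, 202 lay in 1 member with 2 Col1a2 UMIs, 1 Serpinf1 UMI and no Pi16 or Dpt, and 129 in a second one. The cell cycle genes Top2a, Mki67 and Stmn1 were higher in PD00, and 1 member held 54.1% of the Top2a and 47.9% of the Mki67 UMIs; that cell had 24 Pi16, 22 Dpt and 91 Col1a2 UMIs.

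**Figure D5:**
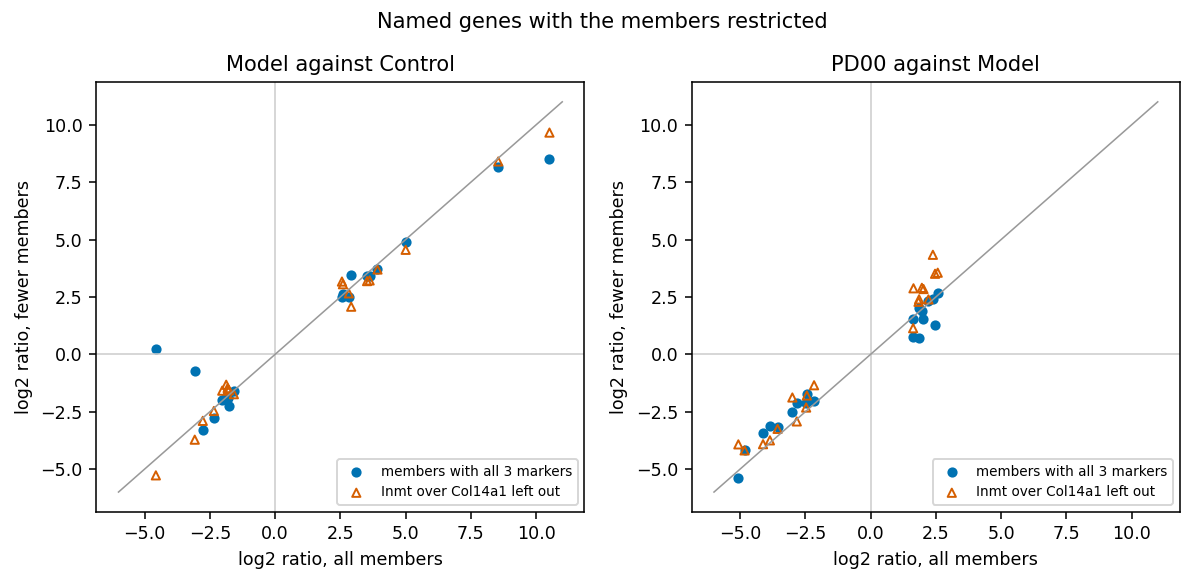
Log2 ratios of the 20 genes named for Model against Control and for PD00 against Model in all members (horizontal axis) and in fewer members (vertical axis): dots are members with all 3 of Pi16, Dpt and Serpinf1, triangles are members without an excess of Inmt over Col14a1, and the line marks equality. Away from the line lie Cyp2e1 (−4.57 and 0.25) and Tcap (−3.08 and −0.75) in the first panel, and Tagln (1.86 and 0.69) in the second, each given for all members and for those with all 3 markers.

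In PD00 against Control, the matrix genes Col6a5 and Postn were higher and adventitial markers were lower. Of 6743 measured genes, 218 (3.23%) were at least 2-fold higher in PD00 and 246 (3.65%) lower, with a median log2 ratio of −0.02. Postn was 14.7-fold higher in PD00 (12.1 to 18.1) and Aldh1a3 6.05-fold higher (4.35 to 8.55). Serpina3g, an inhibitor of cathepsins, had 89.5 CPM in PD00, 64.7 in Model and 2.53 in Control, and Ltbp2, a microfibril protein, 138, 53.0 and 24.3 CPM. Ifit1 and Ly6c1 had ratios of 0.0660 (0.0177 to 0.174) and 0.171 (0.129 to 0.222). The other genes named as lower, Cyp2e1, Wif1 and Tcap, had log2 ratios of −4.40, −3.48 and −3.32 in the whole set and of −0.48, 0.10 and 0.10 in cells with all 3 markers. Tcap had no UMI in PD00, so both of its ratios rest on the 3 set in place of a count of 0. Cyp2e1 lay in PD00 below 2.63 CPM, the level that 3 UMIs stand for there. Of 20 adventitial markers 11 were lower and none higher, with a median of −1.11. In cells with all 3 markers 8 were lower and 1 higher, with a median of −0.93, and without cells richer in Inmt 7 were lower and 1 higher, with a median of −0.80. Clec3b, a plasminogen-binding lectin of this population, had 937, 1422 and 2784 CPM. Among the 6 fibril-forming collagens Col5a2 was higher and the group median was 0.24.

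Against alveolar fibroblasts, the adventitial cells of every library had more of 10 genes ranked by their smallest ratio over the libraries: Dcn, Iyd, Has1, Vit, Gda, Entpd2, Tspan11, Scara5, Fbln2 and Adgrd1. Dcn (decorin) is a small proteoglycan and Has1 a hyaluronan synthase, at 514, 871 and 876 CPM against 2.52, 58.9 and 40.6 CPM in alveolar cells of PD00, Model and Control. Scara5, a ferritin receptor, had 89.5, 157 and 224 CPM and no UMI in the alveolar sums. Since the rule sorts the cells by their genes, these are descriptions. Library differences in the alveolar cells are set beside these without a test of the difference. Postn was 32.0-fold higher in Model than in Control in adventitial fibroblasts, against 2.46-fold in alveolar ones, while for Pcolce2 the ratios of Model to Control were 0.283 in adventitial and 0.213 in alveolar fibroblasts. Alveolar sums are smaller, 397200 UMIs in PD00, 458805 in Model and 813761 in Control. They also held mural cell markers at levels that differed between libraries, and the part of these in the alveolar ratios was not tested.

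RNA of other cells was present in the adventitial sums and differed between libraries. Immunoglobulin and other plasma cell products summed to 1474 CPM in PD00, 4738 in Model and 43.1 in Control, against 33000, 32470 and 1257 CPM in barcodes without Col1a2. In Model 1 member held 31.5% of the Ighg1 UMIs. Leukocyte markers summed to 407, 453 and 405 CPM in adventitial cells, against 8340, 8639 and 14980 CPM in barcodes without Col1a2, and none of the 12 was at 0. Epithelial markers summed to 373, 325 and 465 CPM, endothelial markers to 58.8, 118 and 155 CPM, and mesothelial markers to 103, 19.5 and 49.6 CPM, with 3, 6 and 2 of the 10 mesothelial genes at 0. Schwann and glial markers summed to 6.14, 6.23 and 10.1 CPM.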

How the data were processed

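The authors deposited raw UMI counts per gene and barcode for each library, from a 3' droplet kit per the labels' protocols; 32285 genes were listed. Per the submitters' processing notes Cell Ranger 3.1.0 and STAR on mm10 were used, and cellranger 5.0.0 stands in the matrices' own header lines. No correction for free RNA was made, so each level was set beside kept barcodes without Col1a2.

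UMIs were summed over the members of a library and scaled to CPM. Ratios have exact conditional-binomial 95% intervals; a count of 0 was set to 3 per sum. A gene was measured from 50 UMIs over the pair of sums upward, and 2-fold is a size, not a test. Doublets were scored with Scrublet in scanpy 1.11.5; 0, 0 and 3 members of PD00, Model and Control scored at least 0.2 and were kept. Ratios were tested on simulated counts.

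Named genes were the 10 highest and 10 lowest (5 and 5 for PD00 against Control) by the interval bound nearest to 1, without the 10 genes of the rule, haemoglobin, antigen receptor, sex-specific, mitochondrial and ribosomal protein genes, unnamed models, genes under 3 times the level of barcodes without Col1a2 and genes with over 25% of UMIs in 1 cell. The members, the 27 gene lists and 10 marker lists were chosen with earlier results of these data known, and which lists are described was decided after their values were seen. Alternatives varied the barcode filters, the rule's limits, doublets, depth, scaling, cell weighting and thresholds; restricting to all 3 markers, leaving out Inmt-rich members and leaving out 1 PD00 member were chosen after seeing the data. Coordinates are those of GENCODE M21 on GRCm38.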

Additional observations from a re-analysis of the deposited data

Results flagged for a closer look

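For Enpp2 the PD00 to Model direction was opposite in the adventitial and the alveolar set: the log2 ratio was 2.57 in adventitial and −1.38 in alveolar fibroblasts, a difference of 3.95 (counting interval 2.98 to 4.92). Levels were 370.3 CPM in PD00 and 62.3 in Model in adventitial cells, and 32.7 and 85.0 CPM in alveolar cells. Tagln was also higher in PD00 than in Model in adventitial cells and lower in alveolar cells (1.86 and −2.44), a difference of 4.30 (3.95 to 4.65), where the smooth muscle gene Myh11 had 708 CPM in the alveolar sums of PD00 and 3474 in those of Model; its part in the result was not tested. Tcap was lower in Model than in Control in adventitial cells and higher in alveolar cells (−3.08 and 1.03), a difference of −4.11 (−5.64 to −2.59). These differences were not tested, since each group had 1 library. Mural cell markers summed to 3802 CPM in the alveolar cells of PD00, 17070 in Model and 9451 in Control. Their part in these differences was not tested.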

How the results depend on the processing

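Over 19 settings, 656 of 750 values of named genes, 1194 of 1215 list medians, 26 of 33 share ratios and 82 of 108 gene counts stayed close to the reported value. Counts of genes at least 2-fold higher and lower moved with the threshold and the depth, by construction. For Model against Control they were 67 and 159 after thinning to 2000 UMIs, 428 and 615 with a minimum of 20 UMIs, 68 and 70 with 200 UMIs, and 613 and 1097 at 1.5-fold. For PD00 against Model they were 38 and 47, 489 and 342, 37 and 53, and 630 and 431, and for PD00 against Control 89 and 160, 488 and 490, 61 and 71, and 755 and 891. Without cells richer in Inmt than in Col14a1, 91 genes were higher in PD00 against Model and 127 in PD00 against Control; the sums then held 41, 71 and 116 cells.

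The share ratio of Model to Control was 0.513 after thinning and 0.519 without Inmt-rich cells, and 0.942 as a share of fibroblasts; PD00 to Control was 0.992 as a share of fibroblasts and 0.321 for cells with all 3 markers. PD00 to Model was 0.675 for cells with all 3 markers and 0.691 without Inmt-rich cells, opposite in direction to the 1.14 of the whole set. Limited to all 3 markers, Cyp2e1 in Model against Control turned to 0.25, and Wif1 and Tcap in PD00 against Control to 0.10 each. Tcap had no UMI in PD00, so its ratio rests on the 3 set in place of a count of 0 and is no reversal. Cyp2e1 lay over the whole Model set below 2.34 CPM, the level that 3 UMIs stand for there, so its value rests on very few UMIs. Wif1 had the same value as Tcap. The cause for Cyp2e1 and Wif1 was not tested. Scaling by the median of ratios shifted Model against Control by 0.12 on the log2 scale, and the other comparisons by −0.08 and 0.02. No paired analysis was possible because each group has 1 library. Low counts limit genes near the 50 UMI minimum, and intervals do not cover variation between animals.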

Other observations

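Growth factor and signalling genes outside the comparisons above differed in both directions between PD00 and Model. Igfbp5, a binding protein of insulin-like growth factors, had 1656 CPM in PD00, 817 in Model and 713 in Control, with 31.2% of its PD00 UMIs in 1 cell. Fst (follistatin), which neutralises activins, had 21.1, 85.7 and 45.1 CPM, and Bmp2 16.7, 44.4 and 22.3 CPM. Tnfaip6, Ptx3, Ptgs2, Fst and Ackr3 each had their highest level in Model. Cyp1b1, an oxidising enzyme of retinoid and steroid metabolism, had 81.6, 109 and 28.9 CPM.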
